A study of Mus musculus with 33 samples.

Results

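Messenger RNA of 44 genes of the actin cytoskeleton and cell motility was followed across sorted regulatory T cells (Treg) from mouse colon. The genes were taken from a list of symbols by matching them to the Ensembl gene IDs of the deposited count table, and all 44 were found among its 53465 genes. By role, 9 are genes of actin, myosin and filament crosslinking, 7 of monomer binding and filament turnover, 7 of the Arp2/3 complex, 6 that start or extend filaments and 5 that link filaments to membrane or nucleus, and the other 10, among them Rhoa, Cdc42, Dock2, Ripor2 and Cytip, are described singly. The study set TSLP and IL-33, 2 cytokines released by epithelium, beside Treg in colorectal cancer. The cells came from mice labelled Foxp3-yfp B6, whose Foxp3 gene carries a yellow fluorescent reporter, and the sort took CD45+ cells that also bore TCR, CD4 and Foxp3. The labels list a Foxp3YFP-cre line among mice bought at 7 to 12 weeks of age, and give no age at sampling. Each of 8 mice gave 4 gates, set by the TSLP receptor (TSLPR, gene Crlf2) and the IL-33 receptor (ST2, gene Il1rl1): double-positive TSLPR+ST2+ cells, both single-positive kinds (TSLPR+ST2- or TSLPR-ST2+) and double-negative TSLPR-ST2- cells. Cancer mice 5 to 8 had received azoxymethane (AOM, 10 mg/kg), a carcinogen, and then 3 cycles of dextran sodium sulfate (DSS, 7 days each) in drinking water, which injures the colon lining, and tissue was collected 2 weeks later. Naive mice 1 to 4 carry the same reporter, and the labels do not say whether they had a mock treatment. The design therefore holds 8 groups of 4 libraries, cancer and naive for each gate, and every difference between cancer and naive joins the carcinogen, the colitis and the tumours. Each library was made from 200 sorted cells, so the values are those of small bulk samples.

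Actin monomers are kept ready by thymosins and profilin, are added to filaments by nucleators and elongators, and are recycled by cofilin and related proteins. The Arp2/3 complex starts branched filaments at the leading edge when WASP and WAVE proteins turn it on, while formins and the Ena/VASP proteins extend straight filaments. Rhoa, Rac2 and Cdc42 are GTPases that switch these machines on and off, non-muscle myosin pulls on the filaments, and ERM proteins such as ezrin and moesin tie them to the cell membrane. In T cells the same machinery drives crawling, entry into tissue and the contact with antigen-presenting cells, and loss of Was, Dock2, Dock8 or Coro1a causes immune deficiency.

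The stretches of DNA in front of a few members are shown because motifs of factors tied to actin genes could be looked for there. The members shown are among those with a match. RefSeq (build GRCm38.p6) gave start-site windows of 300 bases (250 before to 50 after a start) for 40 of the 44 members. A CArG box, the site of serum response factor (SRF), which is known for driving actin and contractile genes, lay in 4 of 53 member windows, against 535 of 32851 windows of all genes (1.63%). The letters CCGGAAGT, a core read by ETS factors, were searched on both strands. They lay in 6 of 53 member windows (Actr2, Actr3, Arpc3, Arpc4, Lmna and Myl12b), against 1277 of 32851 windows of all genes (3.89%). The letters TATAAA, searched in the same way, lay in 5 of 53 member windows, against 13.6% of all windows. The 150 bases before the start are given for Actg1 (cytoplasmic gamma-actin) at chr11:120348496-120348645 (- strand), Myl6 (a myosin light chain, second of its starts) at chr10:128493010-128493159 (- strand) and Ripor2 (an inhibitor of Rhoa) at chr13:24582039-24582188 (+ strand), with the CArG box in capitals. They are also given for Actr3 (a core subunit of Arp2/3) at chr1:125435728-125435877 (- strand) and Arpc4 (another subunit) at chr6:113377963-113378112 (+ strand), with CCGGAAGT in capitals.
Actg1: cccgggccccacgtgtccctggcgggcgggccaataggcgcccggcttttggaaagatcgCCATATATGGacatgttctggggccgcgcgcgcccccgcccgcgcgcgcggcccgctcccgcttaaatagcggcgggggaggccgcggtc
Myl6: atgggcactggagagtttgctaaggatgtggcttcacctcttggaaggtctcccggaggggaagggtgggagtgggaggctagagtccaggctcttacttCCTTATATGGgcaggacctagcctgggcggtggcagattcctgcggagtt
Ripor2: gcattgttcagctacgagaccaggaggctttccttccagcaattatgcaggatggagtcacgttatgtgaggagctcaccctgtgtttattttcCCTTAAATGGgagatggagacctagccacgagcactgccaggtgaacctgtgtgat
Actr3: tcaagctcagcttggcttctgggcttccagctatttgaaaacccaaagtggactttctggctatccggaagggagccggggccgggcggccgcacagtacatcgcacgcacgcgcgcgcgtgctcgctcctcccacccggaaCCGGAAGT
Arpc4: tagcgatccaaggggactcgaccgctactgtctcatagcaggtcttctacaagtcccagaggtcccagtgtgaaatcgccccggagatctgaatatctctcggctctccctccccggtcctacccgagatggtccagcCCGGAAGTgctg
The CArG boxes begin 90, 50 and 56 bases before the start in Actg1, Myl6 and Ripor2. In Actr3 and Arpc4 the ETS core begins 8 and 12 bases before the start. These matches describe the letters of the windows only, and no binding was measured here.

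Library totals ran from 4038718 to 8839946 counts over the 32 Treg libraries. Foxp3 stood at 61.1 to 216 CPM (a gene's counts scaled to one common library total) in all of them. Il1rl1 was at 94.5 to 299 CPM in ST2+ libraries, against 0 to 11.1 CPM in ST2- libraries. Crlf2 was at 25.3 to 55.8 CPM in TSLPR+ libraries, against 8.55 to 30.0 CPM in TSLPR- libraries, and in cancer mouse 5 the library labelled TSLPR+ST2+ had less Crlf2 (25.3 CPM) than the one labelled TSLPR-ST2+ (30.0 CPM), so calls that change without mouse 5 are named. The cancer mouse 7 library of TSLPR+ST2+ cells stood apart, with 13855 CPM of 12 epithelial markers and the highest mitochondrial share of all (3.23%). Libraries also differed in how counts followed the GC content and length of transcripts. The double-positive and TSLPR-ST2+ libraries of naive mouse 3 leaned furthest towards GC-rich transcripts. Of 14 markers of smooth muscle, fibroblasts and endothelium, cells that could bring actin and myosin mRNA into a colon sample, 11 were at 0 in 20 to 31 of the 32 libraries, with Myh11 at 0 in 26 and Des in 28 of them. Acta2 reached at most 3.31 CPM, and Actg2, an actin of smooth muscle, had a median of 12.7 CPM and was at 0 in 6 libraries. Pecam1, which leukocytes also carry, was at 0 in none and had a median of 154 CPM. Sums of this list therefore rest mainly on Pecam1. The summed level of the list was 57.3 to 226 CPM (median 137) in TSLPR+ against 121 to 235 CPM (median 193) in TSLPR- libraries, and 57.3 to 232 CPM (median 139) in ST2+ against 114 to 235 CPM (median 191) in ST2- libraries, and its part in the results below was not tested. In all sums of counts from sorted cells, fewer cells of a type and less RNA per cell cannot be told apart.

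All 44 members passed the filter on low counts, and together they made up 3.36% to 3.93% of each Treg library's counts. Per kilobase of transcript, the members with the highest mean level were Tmsb4x (thymosin beta 4, which holds actin monomers in reserve) at 4099 CPM per kb, Actb (cytoplasmic beta-actin) at 3129 CPM per kb and Pfn1 (profilin, which feeds monomers to growing filaments) at 2703 CPM per kb. Among related genes, one was far above the other per kilobase in both the actin and the thymosin pair: Actb stood above Actg1 (245 CPM per kb) and Tmsb4x above Tmsb10 (385 CPM per kb). The myosin regulatory light chains Myl12a and Myl12b were close, at 281 and 364 CPM per kb. Lmna (lamin A/C, of the nuclear envelope) had the lowest level, 2.52 CPM per kb, with 3 libraries at 0. Over the 32 libraries the coefficient of variation of CPM ran from 7.05% for Rac2, the Rac GTPase of blood cells, to 153% for Lmna. Below Lmna came Cotl1 (coactosin-like, an F-actin binding protein) at 45.5%, Cdc42ep3 (a Cdc42 effector) at 39.6%, Evl (an Ena/VASP elongation factor) at 34.9%, Flna (filamin A, a filament crosslinker) at 33.0% and Ripor2 at 32.3%. Several members share read-length sequence with other genes, so their counts are less certain: 56.2% of the 58-base windows of Actg1, 48.5% of Myl6, 44.5% of Actr3, 253 of 633 windows of Tmsb10, 39.5% of the windows of Arpc1b, 32.7% of Myl12b and 28.9% of Myl12a also occur elsewhere in the transcriptome. No such window was found in Capg, Ripor2, Tmsb4x, Pfn1, Cotl1, Vasp, Dock2 or Dock8.

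**Figure D1:**
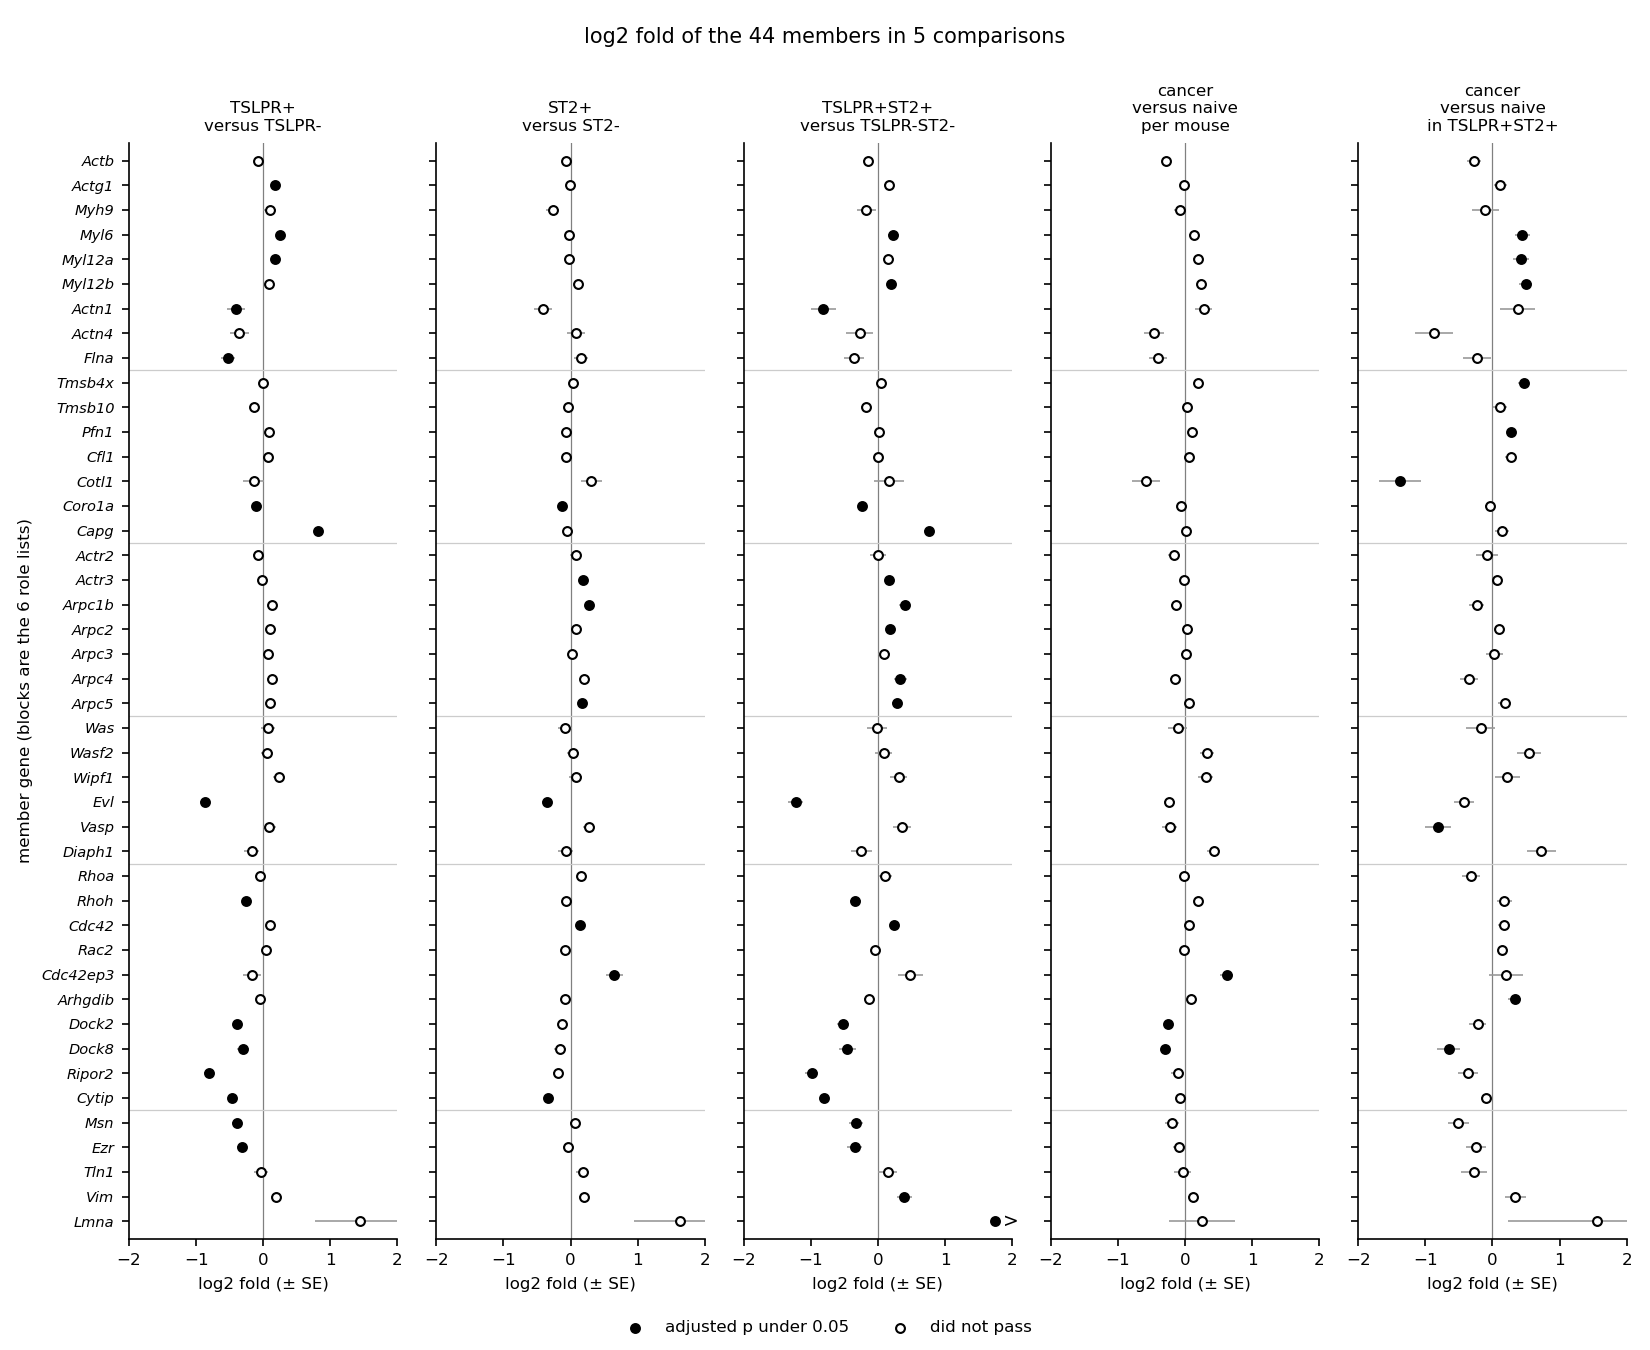
log2 fold of each of the 44 members (rows, blocked by role) in 5 comparisons (panels), with its standard error as a bar. Filled points passed the adjusted p limit of 0.05, the Lmna value marked > lies beyond the axis, and the TSLPR panel holds 15 filled points, the ST2 panel 8 and the per-mouse cancer panel 3.

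Of the 44 members, 15 passed between TSLPR+ and TSLPR- Treg, 4 higher and 11 lower in TSLPR+ cells, where 13.4% (7.97% higher and 5.46% lower) of all 14861 genes tested passed in either direction. The median log2 fold of the members was -0.01, and that of all genes tested 0.01. Capg, the gelsolin-family protein that caps filament ends, was the member with the smallest p, and it was higher in TSLPR+ cells by 1.76-fold. The Ena/VASP protein Evl, the Rhoa inhibitor Ripor2 and the scaffold Cytip, which restrains T cell adhesion, were lower. No member of the Arp2/3 complex passed.

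Among genes of actin, myosin and crosslinking, 3 of 9 were higher and 2 lower in TSLPR+ Treg. Myl6, the essential light chain of non-muscle myosin, ranged from 359 to 711 CPM (median 481) in TSLPR+ libraries, against 351 to 469.7 CPM (median 413) in TSLPR- libraries (log2 fold 0.25 ± 0.06 SE, edgeR adjusted p = 0.0024, higher in 8 of 8 mice). Both sides overlapped, and GC and length offsets with the mouse as a block ended this call at log2 0.04, adjusted p = 0.65. Actg1 ranged from 411 to 598 CPM (median 503) in TSLPR+ libraries, against 383 to 494 CPM (median 458) in TSLPR- libraries (log2 fold 0.17 ± 0.05 SE, edgeR adjusted p = 0.017, higher in 7 of 8 mice), while Actb had a log2 fold of -0.08 ± 0.05 (edgeR adjusted p = 0.36). Myl12a was the third gene that was higher (log2 fold 0.18 ± 0.06, edgeR adjusted p = 0.034), and its close relative Myl12b stood at 0.09 ± 0.05 (adjusted p = 0.21). The calls of Actg1 and Myl12a were lost with GC and length offsets and the mouse as a block (adjusted p = 0.27 and 0.18) and with the mitochondrial share as a covariate, and Myl12a also without mouse 1, 2 or 5 and Actg1 without mouse 4. Flna ranged from 158 to 382 CPM (median 268) in TSLPR+ libraries, against 212 to 651 CPM (median 364) in TSLPR- libraries (log2 fold -0.52 ± 0.11 SE, edgeR adjusted p = 0.001), and it was lower in 8 of 8 mice. Its highest TSLPR- value belonged to one of the GC-leaning libraries of naive mouse 3, and the call held without that mouse. Actn1, the crosslinker alpha-actinin 1, was lower (log2 fold -0.41 ± 0.13, edgeR adjusted p = 0.035), but with the mouse as a block its adjusted p was 0.065, with GC and length offsets added it was 0.16, and leaving out any of mice 1, 2, 3, 4, 5 and 7 ended the call.

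Of the 7 genes of monomer binding and turnover, Capg was higher and Coro1a lower. Capg (chromosome 6, 72544391 to 72562983, + strand) had 1362, 1006, 1217 and 1053 CPM in TSLPR+ST2+ and 1109, 1148, 1047 and 1025 CPM in TSLPR+ST2- libraries of cancer mice, against 624, 543, 759 and 655 CPM in TSLPR-ST2+ and 629.8, 688, 708 and 584 CPM in TSLPR-ST2- libraries. In naive mice it had 1118, 1174, 936 and 955 CPM in TSLPR+ST2+ and 1222, 1158, 987 and 1148 CPM in TSLPR+ST2- libraries, against 596, 571, 511 and 599 CPM in TSLPR-ST2+ and 694, 691, 578 and 607 CPM in TSLPR-ST2- libraries. Every TSLPR+ library lay above every TSLPR- library, in both statuses (log2 fold 0.82 ± 0.05 SE, edgeR adjusted p = 1.1e-11, higher in 8 of 8 mice). The summed level of 10 macrophage and dendritic cell markers was 314 to 2604 CPM (median 741) in TSLPR+ libraries, against 119 to 2657 CPM (median 385) in TSLPR- libraries. Of these markers Cd68 and Cst3 were at 0 in none of the 32 Treg libraries, Lyz2 in 1, C1qb in 3, C1qc and Csf1r in 4 each, C1qa in 5, Adgre1 in 14, Itgax in 20 and Cd14 in 24, and their part in the Capg values was not tested. Between the ST2 gates Capg had a log2 fold of -0.05 ± 0.05 (edgeR adjusted p = 0.68). Coro1a (coronin 1A, which turns over branched filaments) ranged from 2813 to 3700.4 CPM (median 3164) in TSLPR+ libraries, against 2807 to 3937 CPM (median 3387) in TSLPR- libraries (log2 fold -0.11 ± 0.03 SE, edgeR adjusted p = 0.025), a difference of 1.08-fold, and leaving out mouse 1, 3, 4, 5, 7 or 8 ended its call. The abundant Tmsb4x, Pfn1 and Cfl1 (cofilin, which severs filaments) had log2 folds of -0.0029 ± 0.04, 0.09 ± 0.03 and 0.07 ± 0.04, and none passed.

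Evl was the only one of the 6 nucleation and elongation factors that passed. Evl (chromosome 12, 108554720 to 108688516, + strand) had 116, 94.0, 62.0 and 83.6 CPM in TSLPR+ST2+ and 151, 151, 115 and 139.5 CPM in TSLPR+ST2- libraries of cancer mice, against 222, 139.5, 181 and 201 CPM in TSLPR-ST2+ and 213, 223, 185 and 248 CPM in TSLPR-ST2- libraries. In naive mice it had 114, 105, 118 and 141 CPM in TSLPR+ST2+ and 151, 165, 157 and 146 CPM in TSLPR+ST2- libraries, against 206, 243, 238 and 253 CPM in TSLPR-ST2+ and 235, 283, 278 and 277 CPM in TSLPR-ST2- libraries. Within each mouse the TSLPR+ mean was below the TSLPR- mean (log2 fold -0.87 ± 0.07 SE, edgeR adjusted p = 1.8e-09, 1.83-fold lower), and the sides overlapped through a single TSLPR- value, that of the TSLPR-ST2+ library of cancer mouse 6. Its relative Vasp had a log2 fold of 0.09 ± 0.10 and the formin Diaph1 -0.17 ± 0.11, and neither passed. About 10.4% of the windows of Evl are shared with Degs2, which overlaps it on the other strand. Without a stated strand setting, reads of such a pair cannot be told apart, and the same holds for Arpc1b and Pdap1.

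Ripor2, Cytip, Dock2, Rhoh and Dock8 were lower in TSLPR+ cells as well. Ripor2 ranged from 212 to 383 CPM (median 318) in TSLPR+ libraries, against 402 to 771 CPM (median 535) in TSLPR- libraries (log2 fold -0.80 ± 0.07 SE, edgeR adjusted p = 4.9e-09, lower in 8 of 8 mice), with no overlap between the sides. Cytip ranged from 731 to 1169 CPM (median 973) in TSLPR+ libraries, against 1002 to 1657 CPM (median 1344) in TSLPR- libraries (log2 fold -0.46 ± 0.04 SE, edgeR adjusted p = 4.2e-10, lower in 8 of 8 mice). Dock2, the exchange factor that activates Rac in lymphocytes, ranged from 467 to 790.2 CPM (median 573) in TSLPR+ libraries, against 501 to 959 CPM (median 842) in TSLPR- libraries (log2 fold -0.39 ± 0.06 SE, edgeR adjusted p = 7.9e-05, lower in 8 of 8 mice). Cytip and Dock2 overlapped between the gates, and the calls of all 3 genes held under all 20 alternatives, as did those of Capg and Evl. Rhoh, a GTPase of blood cells without GTPase activity, ranged from 604 to 879.8 CPM (median 742) in TSLPR+ libraries, against 659 to 1045 CPM (median 903) in TSLPR- libraries (log2 fold -0.26 ± 0.06 SE, edgeR adjusted p = 0.0015, lower in 7 of 8 mice), and its call was lost with GC and length offsets and the mouse as a block (adjusted p = 0.068). Dock8, an exchange factor for Cdc42, was the fifth (log2 fold -0.30 ± 0.09, edgeR adjusted p = 0.02), and leaving out mouse 2, 3, 4, 5 or 7 ended that call, as did GC and length offsets with the mouse as a block (adjusted p = 0.098) and the mitochondrial covariate. The GTPases themselves, Rhoa, Cdc42 and Rac2, had log2 folds of -0.05 ± 0.07, 0.10 ± 0.04 and 0.04 ± 0.03 and did not pass.

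Of the 5 membrane linkers and intermediate filament genes, both ERM proteins were lower. Msn (moesin, the main ERM protein of lymphocytes) ranged from 717 to 1577 CPM (median 1046) in TSLPR+ libraries, against 929 to 1842 CPM (median 1357) in TSLPR- libraries (log2 fold -0.39 ± 0.08 SE, edgeR adjusted p = 0.00072, lower in 8 of 8 mice). Ezr (ezrin) ranged from 314 to 530.1 CPM (median 444) in TSLPR+ libraries, against 353 to 657 CPM (median 531) in TSLPR- libraries (log2 fold -0.32 ± 0.08 SE, edgeR adjusted p = 0.0046, lower in 8 of 8 mice). The ranges overlapped across mice for both genes, while within each mouse TSLPR+ cells were the lower side. Tln1 (talin, which connects integrins to actin), Vim (vimentin) and Lmna had log2 folds of -0.03 ± 0.10, 0.19 ± 0.08 and 1.44 ± 0.67 and did not pass. Within naive mice alone, 6 of the 15 members passed (Capg higher and Cytip, Dock2, Evl, Flna and Ripor2 lower), and within cancer mice alone 7 (Capg and Myl6 higher and Cytip, Dock2, Evl, Msn and Ripor2 lower). Markers of other cells moved with the gate as well: the sum of 12 epithelial markers was 59.8 to 13855 CPM (median 156) in TSLPR+ against 31.2 to 173 CPM (median 62.3) in TSLPR- libraries, and that of 7 B and plasma cell markers 42.3 to 866 CPM (median 162) against 30.0 to 124 CPM (median 53.9). Their part in the lower and higher members was not tested.

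**Figure D2:**
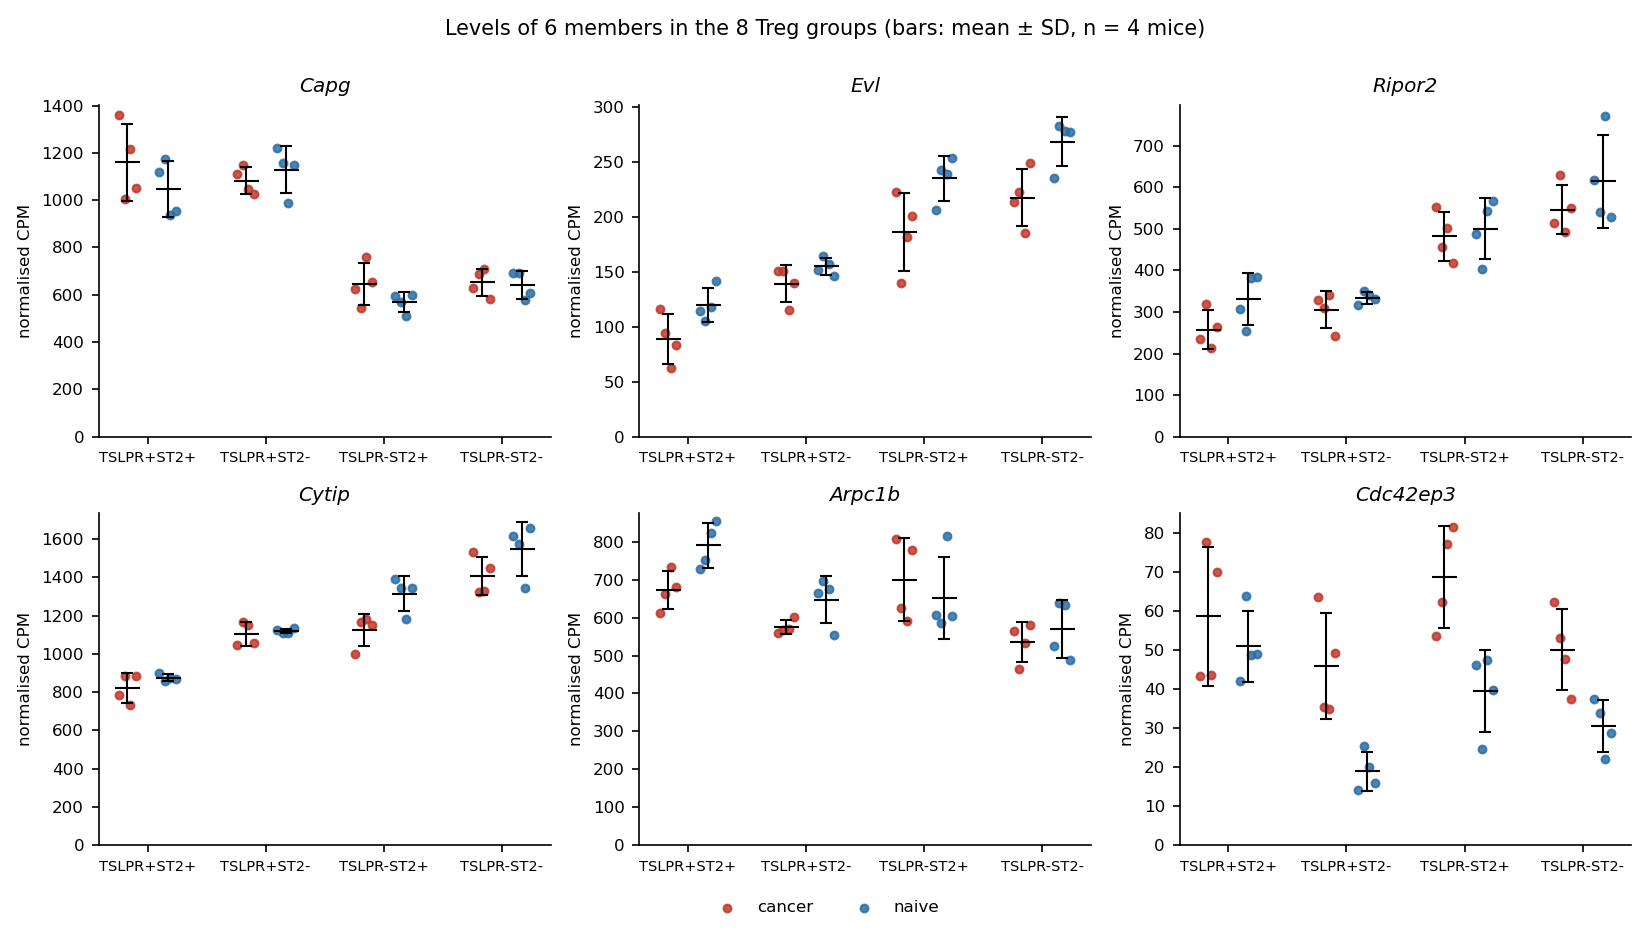
Normalised CPM of Capg, Evl, Ripor2, Cytip, Arpc1b and Cdc42ep3 (panels) in the 8 Treg groups, with cancer mice in red left of naive mice in blue in each gate, points for libraries and bars for mean ± SD (n = 4). Capg is at 936 CPM or more in every TSLPR+ library and at 759 CPM or less in every TSLPR- library. Ripor2 is lower in every TSLPR+ library than in every TSLPR- library. Evl and Cytip are lowest in TSLPR+ST2+ cells, and Cdc42ep3 is lowest in naive TSLPR+ST2- cells.

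Between ST2+ and ST2- Treg, 8 of 44 members passed, 5 higher and 3 lower in ST2+ cells, where 6.04% (3.7% higher and 2.33% lower) of all genes tested passed in either direction. Genes of the Arp2/3 complex were the largest group: 3 of 7 were higher and none lower. Arpc1b, the regulatory subunit of the complex in blood cells, ranged from 585 to 856 CPM (median 705) in ST2+ libraries, against 464 to 696 CPM (median 569.7) in ST2- libraries (log2 fold 0.27 ± 0.06 SE, edgeR adjusted p = 0.0026, higher in 8 of 8 mice). Actr3 ranged from 873 to 1209.6 CPM (median 995) in ST2+ libraries, against 776 to 988 CPM (median 882) in ST2- libraries (log2 fold 0.18 ± 0.04 SE, edgeR adjusted p = 0.0026, higher in 8 of 8 mice). Arpc5, another subunit, ranged from 642 to 967 CPM (median 782) in ST2+ libraries, against 609 to 798 CPM (median 707) in ST2- libraries (log2 fold 0.17 ± 0.05 SE, edgeR adjusted p = 0.022, higher in 7 of 8 mice). All 3 sets of ranges overlapped and the folds were small, at most 1.21-fold. The calls of Actr3 and Arpc1b held without each mouse in turn, and that of Arpc5 was lost without mouse 1, 2, 4 or 5. Within naive mice alone none of these 3 calls held, and within cancer mice alone that of Arpc5 did not (adjusted p = 0.19, 0.31 and 0.56 for Arpc1b, Actr3 and Arpc5 in naive mice, and 0.083 for Arpc5 in cancer mice). The other subunits Actr2, Arpc2, Arpc3 and Arpc4 had log2 folds of 0.08 ± 0.08, 0.08 ± 0.04, 0.03 ± 0.06 and 0.20 ± 0.07 and did not pass.

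Cdc42ep3 and Cdc42 were also higher, and Cytip was lower, in ST2+ cells. Cdc42ep3, which binds active Cdc42 and septins, ranged from 24.6 to 81.4 CPM (median 48.9) in ST2+ libraries, against 14.2 to 63.5 CPM (median 35.1) in ST2- libraries (log2 fold 0.65 ± 0.13 SE, edgeR adjusted p = 0.0018, higher in 7 of 8 mice), and within cancer mice alone its call was lost (log2 0.41, adjusted p = 0.36). Cdc42 ranged from 854 to 1302 CPM (median 1086) in ST2+ libraries, against 874 to 1085 CPM (median 975) in ST2- libraries (log2 fold 0.15 ± 0.04 SE, edgeR adjusted p = 0.036), and leaving out mouse 1, 2, 4, 5 or 7 ended its call. Cytip ranged from 731 to 1389 CPM (median 951) in ST2+ libraries, against 1045 to 1657 CPM (median 1246) in ST2- libraries (log2 fold -0.34 ± 0.04 SE, edgeR adjusted p = 5.7e-07, lower in 8 of 8 mice). Cytip was the member of this comparison whose call held under all 20 alternatives. Evl was lower as well, ranging from 62.0 to 253 CPM (median 140.4) in ST2+ libraries, against 115 to 283 CPM (median 175) in ST2- libraries (log2 fold -0.36 ± 0.07 SE, edgeR adjusted p = 0.0028, lower in 8 of 8 mice). Coro1a was lower by 1.09-fold (log2 fold -0.13 ± 0.03, edgeR adjusted p = 0.018, lower in 8 of 8 mice), a call that was lost without mouse 2, 3 or 6. The calls of Cdc42, Evl and Coro1a held within neither status alone. No gene of actin, myosin and crosslinking and no membrane linker passed. The macrophage and dendritic cell marker sum was 464 to 2657 CPM (median 1142) in ST2+ against 119 to 1452 CPM (median 310.5) in ST2- libraries. The epithelial sum was 34.9 to 13855 CPM (median 166) in ST2+ against 31.2 to 155 CPM (median 66.0) in ST2- libraries. For B and plasma cells the sum was 36.6 to 866 CPM (median 113) against 30.0 to 421 CPM (median 63.7). The part of these sums in the members was not tested. Coro1a, Cytip and Evl passed in both receptor comparisons, each time lower in the receptor-positive cells.

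TSLPR+ST2+ and TSLPR-ST2- Treg, which use the same libraries as the comparisons above, showed both patterns together. Of the 44 members 21 passed, 11 higher and 10 lower in TSLPR+ST2+ cells, where 15.2% (9.27% higher and 5.98% lower) of all genes tested passed in either direction. Of the Arp2/3 complex 5 of 7 were higher: Arpc1b ranged from 613 to 856 CPM (median 732) in TSLPR+ST2+ libraries, against 464 to 639 CPM (median 549) in TSLPR-ST2- libraries (log2 fold 0.40 ± 0.08 SE, edgeR adjusted p = 0.00073, higher in 8 of 8 mice). Arpc5 had a log2 fold of 0.28 ± 0.06, Arpc4 0.33 ± 0.10, Arpc2 0.18 ± 0.05 and Actr3 0.16 ± 0.05 (edgeR adjusted p = 0.0032, 0.019, 0.019 and 0.035). Each of the 5 was higher in at least 7 of 8 mice. The calls of Arpc1b and Arpc5 held without each mouse in turn, while that of Arpc4 was lost without mouse 2, 4 or 6, that of Arpc2 without mouse 1 or 5 and that of Actr3 without mouse 2, 4, 5 or 6. Arpc3 and Actr2 had log2 folds of 0.09 ± 0.09 and 0.01 ± 0.12 and did not pass. Cdc42, the GTPase that turns on WASP, was higher at log2 0.25 ± 0.06 (edgeR adjusted p = 0.0053, higher in 7 of 8 mice).

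On the lower side, Evl and Cytip showed the smallest p: Evl ranged from 62.0 to 141 CPM (median 109.5) in TSLPR+ST2+ libraries, against 185 to 283 CPM (median 242) in TSLPR-ST2- libraries (log2 fold -1.23 ± 0.11 SE, edgeR adjusted p = 2e-09), which is 2.34-fold lower. Cytip ranged from 731 to 901 CPM (median 870.1) in TSLPR+ST2+ libraries, against 1323 to 1657 CPM (median 1490.0) in TSLPR-ST2- libraries (log2 fold -0.80 ± 0.05 SE, edgeR adjusted p = 1.3e-11). Ripor2 ranged from 212 to 383 CPM (median 285) in TSLPR+ST2+ libraries, against 493 to 771 CPM (median 545) in TSLPR-ST2- libraries (log2 fold -0.99 ± 0.10 SE, edgeR adjusted p = 5.2e-08). None of these 3 overlapped between the gates, nor did Dock2 (log2 fold -0.52 ± 0.09, edgeR adjusted p = 0.00015) or Coro1a (-0.24 ± 0.05, adjusted p = 0.00061). Actn1 ranged from 11.5 to 24.8 CPM (median 15.2) in TSLPR+ST2+ libraries, against 22.8 to 40.8 CPM (median 27.6) in TSLPR-ST2- libraries (log2 fold -0.82 ± 0.19 SE, edgeR adjusted p = 0.0028, lower in 8 of 8 mice). Rhoh, Dock8, Ezr and Msn were lower at log2 -0.34, -0.46, -0.35 and -0.33 (edgeR adjusted p = 0.0036, 0.013, 0.025 and 0.041). Capg was higher at log2 0.77, Vim at 0.40, Myl6 at 0.23 and Myl12b at 0.20 (adjusted p = 1.2e-08, 0.012, 0.044 and 0.036). The calls of Evl, Cytip, Ripor2, Dock2, Coro1a, Actn1, Rhoh, Cdc42 and Capg held without each mouse in turn. That of Vim was lost without mouse 1 or 4, that of Dock8 without mouse 2 or 6, that of Ezr without mouse 1, 2, 3 or 7 and that of Myl6 without mouse 1, 2, 4, 5 or 7. Msn lost its call without mouse 1, 2, 3, 4, 5 or 7 and with DESeq2 or limma, and Myl12b without mouse 1, 2, 4, 5, 6 or 7. With GC and length offsets and the mouse as a block, the calls of Arpc2, Rhoh, Dock8, Myl12b, Myl6 and Lmna were lost (adjusted p = 0.79, 0.071, 0.066, 0.16, 0.88 and 0.077), and with the mitochondrial share as a covariate those of Ezr, Myl12b, Myl6 and Lmna. In naive mice alone Myl6 stood at log2 -0.018. Lmna passed at log2 3.07 ± 1.01 on sparse counts: it ranged from 0.169 to 55.6 CPM (median 7.85) in TSLPR+ST2+ libraries, against 0 to 7.09 CPM (median 1.08) in TSLPR-ST2- libraries, with its adjusted p at 0.037 and, with the mouse as a block, at 0.077. Without mouse 1, 2, 3, 6 or 7 it did not pass either. The macrophage and dendritic cell sum was 639 to 2604 CPM (median 1383) in TSLPR+ST2+ against 119 to 307 CPM (median 206) in TSLPR-ST2- libraries. The B and plasma cell sum was 83.9 to 866 CPM (median 296) in TSLPR+ST2+ against 30.0 to 124 CPM (median 46.5) in TSLPR-ST2- libraries, the epithelial sum 158 to 13855 CPM (median 257) in TSLPR+ST2+ against 31.2 to 85.5 CPM (median 58.9) in TSLPR-ST2- libraries, and the smooth muscle, fibroblast and endothelium sum 57.3 to 171 CPM (median 102) in TSLPR+ST2+ against 171 to 235 CPM (median 198) in TSLPR-ST2- libraries. The last of these sums rests mainly on Pecam1, and the part of the 4 sums in the members was not tested.

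The single-positive gates were set against each other to compare the receptors directly. Between TSLPR+ST2- and TSLPR-ST2+ Treg, 7 of 44 members passed, 1 higher and 6 lower in TSLPR+ST2- cells, where 2.67% (1.4% higher and 1.27% lower) of all genes tested passed in either direction. Capg ranged from 987 to 1222 CPM (median 1129) in TSLPR+ST2- libraries, against 511 to 759 CPM (median 597) in TSLPR-ST2+ libraries (log2 fold 0.87 ± 0.07 SE, edgeR adjusted p = 1.5e-08). Ripor2 ranged from 242 to 349.6 CPM (median 329.8) in TSLPR+ST2- libraries, against 402 to 568 CPM (median 495) in TSLPR-ST2+ libraries (log2 fold -0.62 ± 0.10 SE, edgeR adjusted p = 0.00056). Neither gene overlapped between the gates. Flna, Evl and Msn were lower at log2 -0.68 ± 0.15, -0.51 ± 0.11 and -0.46 ± 0.11 (edgeR adjusted p = 0.0092, 0.0052 and 0.016). Cdc42ep3 was lower at -0.82 ± 0.18 (adjusted p = 0.01), in 6 of 8 mice, and Actr3 at -0.20 ± 0.05 (adjusted p = 0.033), in 8 of 8 mice. With the mouse as a block, Myl6 (log2 0.28, adjusted p = 0.03) and Pfn1 (log2 0.16, adjusted p = 0.043) also passed. The calls of Capg, Evl, Flna and Ripor2 held without each mouse in turn. Within naive mice alone only Capg and Evl passed, and within cancer mice alone only Capg. That of Cdc42ep3 was lost without mouse 1, 4 or 7, that of Msn without mouse 1, 3, 5, 7 or 8, and that of Actr3 without any mouse but mouse 6.

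A further 128 cytoskeleton genes in 7 lists were counted beside the members, and 122 of them were tested. Between TSLPR+ and TSLPR- cells 11 were higher and 19 lower, where 13.4% of all genes passed. Among those lower were the exchange factors Arhgef1 (log2 fold -0.46 ± 0.08, edgeR adjusted p = 0.00019) and Dock11 (-0.53 ± 0.10, adjusted p = 0.00045). Of 18 tested genes of the Arp2/3, WAVE and nucleation list 4 were higher and none lower, led by Cyfip1, a subunit of the WAVE complex (log2 fold 0.88 ± 0.13, edgeR adjusted p = 1.8e-05). The cofilin phosphatase Ssh2 (-0.61 ± 0.09, adjusted p = 1.3e-05) and the adducin Add3, which caps and bundles filaments (-0.64 ± 0.09, adjusted p = 1.6e-05), were lower. Between ST2+ and ST2- cells 6 were higher and 2 lower, a share near the 6.04% of all genes and so no result about these genes. The class I myosin Myo1f had the smallest p there and ranged from 26.1 to 428 CPM (median 177) in ST2+ libraries, against 1.42 to 122 CPM (median 58.7) in ST2- libraries (log2 fold 1.73 ± 0.28 SE, edgeR adjusted p = 0.00018, higher in 8 of 8 mice). Myo1f is known from neutrophils and macrophages too, and the part of the myeloid marker sum in its value was not tested. Between TSLPR+ST2+ and TSLPR-ST2- cells 18 were higher and 16 lower, where 15.2% of all genes passed, with Myo1f at 135 to 428 CPM (median 233) in TSLPR+ST2+ libraries, against 1.42 to 68.6 CPM (median 32.4) in TSLPR-ST2- libraries (log2 fold 2.94 ± 0.41 SE, edgeR adjusted p = 7.6e-06). Rhoc was higher there at log2 2.77 ± 0.54 (edgeR adjusted p = 0.00049). Of 6 genes for SRF and its coactivators, only Elk4 passed, lower in all 3 of these comparisons (log2 -0.25, -0.29 and -0.54). Its edgeR adjusted p was 0.04996, 0.036 and 0.0023. These comparisons share libraries, and 1 gene of so short a list is no result about the list. Between the single-positive gates none was higher and 7 lower, where 2.67% of all genes passed, among them Add3 (log2 fold -0.79 ± 0.13, adjusted p = 0.00056).

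Cancer and naive mice were compared on the summed counts of each mouse's 4 gates, and few members differed. Of 44 members 3 passed, 1 higher and 2 lower in cancer mice, where 1.21% (0.287% higher and 0.926% lower) of the 15338 genes tested passed in either direction. The Cdc42 effector Cdc42ep3 had 56.8, 55.7, 51.9 and 59.9 CPM in cancer mice, against 35.3, 38.4, 36.6 and 35.7 CPM in naive mice (log2 fold 0.62 ± 0.10 SE, edgeR adjusted p = 0.023). Dock2 had 650.0, 649.6, 652 and 623 CPM in cancer mice, against 809.6, 783, 745 and 734 CPM in naive mice (log2 fold -0.26 ± 0.05 SE, edgeR adjusted p = 0.036). Dock8 had 263, 278, 250.3 and 268 CPM in cancer mice, against 352, 308, 331 and 319 CPM in naive mice (log2 fold -0.31 ± 0.06 SE, edgeR adjusted p = 0.0499). The groups did not overlap for any of the 3 genes, but with 4 mice a group their adjusted p lay near the limit: the call of Cdc42ep3 held without mouse 3 or 7 alone, that of Dock2 without mouse 3 alone, and that of Dock8 with no mouse left out. With the mitochondrial share as a covariate none passed. GC and length offsets ended the calls of Dock2 (log2 -0.22, adjusted p = 0.11) and Dock8 (log2 -0.24, adjusted p = 0.1), kept that of Cdc42ep3 (log2 0.57, adjusted p = 0.03) and added Diaph1 as higher (log2 0.53, adjusted p = 0.049). Without the filter on low counts Dock2 and Dock8 did not pass either. With the TSLPR+ST2+ libraries left out of the sums, Cdc42ep3 (log2 0.87, adjusted p = 0.014) and Dock2 (log2 -0.30, adjusted p = 0.047) passed.

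Most of the abundant genes missed the limit in this comparison. Actb had 5794, 5319.8, 5297 and 5196 CPM in cancer mice, against 6211, 6728, 7346 and 6143 CPM in naive mice, without overlap, at a log2 fold of -0.29 ± 0.06 (edgeR adjusted p = 0.056), while Actg1 had 458, 482, 477 and 465 CPM against 491, 518, 438 and 463 CPM (-0.02 ± 0.06, adjusted p = 0.9). Tmsb4x had 3242, 3350.1, 3423 and 3259.6 CPM in cancer mice, against 2994, 3061, 2676 and 2946 CPM in naive mice (0.19 ± 0.05, adjusted p = 0.09). Its relative Tmsb10 had 257, 260.1, 281 and 273 CPM in cancer mice, against 272, 265, 237 and 273 CPM in naive mice (0.03 ± 0.06, adjusted p = 0.86). For Tmsb4x every cancer value lay above every naive one, which was not so for Tmsb10. Pfn1 had 2334, 2367, 2484 and 2357 CPM in cancer mice, against 2279.7, 2364, 2096 and 2185 CPM in naive mice (0.10 ± 0.04, adjusted p = 0.31). Myl12a had 577, 569, 602 and 547 CPM in cancer mice, against 535, 537, 429 and 504 CPM in naive mice, and Myl12b 819, 846, 868 and 819 CPM against 710.0, 773, 638 and 713 CPM. Neither light chain passed (adjusted p = 0.23 and 0.09), although for both the mice of the 2 statuses did not overlap. In all, 12 of 44 members had no overlap between the statuses, where 11.3% of the 15338 genes tested had none. Of the other cytoskeleton genes none of 122 was higher and 6 were lower (all genes 0.287% higher and 0.926% lower), among them the class I myosin Myo1e (log2 fold -0.70 ± 0.08, edgeR adjusted p = 0.01) and the WAVE complex subunit Nckap1l (-0.58 ± 0.10, adjusted p = 0.034).

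**Figure D3:**
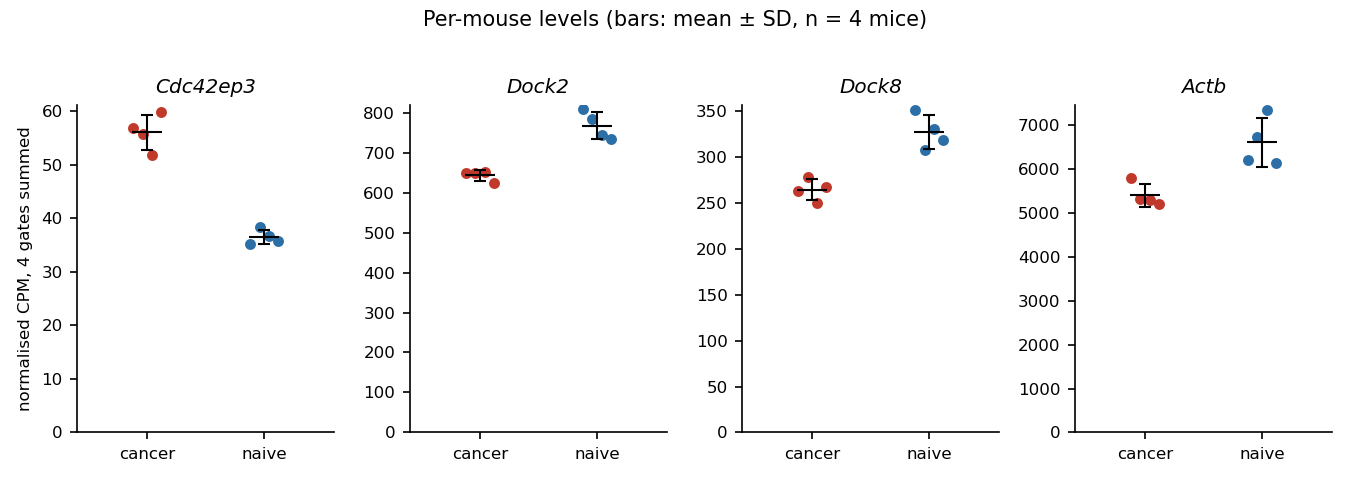
Normalised CPM of Cdc42ep3, Dock2, Dock8 and Actb per mouse, the counts of its 4 gates summed, with cancer mice left of naive mice and bars for mean ± SD (n = 4). The statuses do not overlap for any of these 4 genes, and Actb did not pass the adjusted p limit (adjusted p = 0.056).

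Within single gates, members passed in double-positive TSLPR+ST2+ cells and in none of the other 3 gates. By edgeR no member passed in double-negative cells, in TSLPR-ST2+ cells or in TSLPR+ST2- cells, where 0.209%, 0.202% and 0.0471% (0.0269% higher and 0.0202% lower) of all genes tested passed. At an unadjusted p under 0.05 there were 5, 11 and 9 members, where 7.41%, 10.6% and 7.4% of all genes were. DESeq2 called 0, 1 (Dock2) and 2 (Actb and Cdc42ep3) members and 0.861%, 1.37% and 0.585% of all genes, and limma 0, 1 and 0 members and 0.236%, 0.431% and 0.074% of all genes. The interactions given last tested whether status acted differently between ST2+ and ST2- cells or between TSLPR+ and TSLPR- cells, not in single gates. Cdc42ep3 in TSLPR+ST2- cells had 63.5, 35.5, 34.8 and 49.2 CPM in cancer mice, against 14.2, 25.3, 20.1 and 15.9 CPM in naive mice, without overlap (log2 fold 1.28 ± 0.26, edgeR adjusted p = 0.061). In TSLPR-ST2+ cells it had 53.5, 62.2, 77.2 and 81.4 CPM in cancer mice, against 46.0, 24.6, 47.5 and 39.6 CPM in naive mice, and in TSLPR-ST2- cells 62.3, 52.9, 47.6 and 37.4 CPM against 37.5, 33.8, 22.0 and 28.8 CPM. In TSLPR+ST2+ cells the statuses overlapped, at 43.3, 77.7, 43.6 and 69.8 CPM in cancer mice against 42.1, 63.7, 48.8 and 49.0 CPM in naive mice (log2 fold 0.20 ± 0.26).

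In TSLPR+ST2+ Treg, 9 of 44 members passed, 6 higher and 3 lower in cancer mice, where 4.16% (1.66% higher and 2.5% lower) of all genes tested passed in either direction. Those that were higher were Tmsb4x, Pfn1, the myosin light chains Myl12b, Myl12a and Myl6, and Arhgdib, a GDP dissociation inhibitor. Tmsb4x had 4143, 3809, 3918 and 3269 CPM in cancer mice, against 3016, 3116, 2366 and 2485 CPM in naive mice (log2 fold 0.46 ± 0.08 SE, edgeR adjusted p = 0.0022). Pfn1 had 2668, 2385, 2895 and 2406 CPM in cancer mice, against 2307, 2340.1, 1883 and 1981 CPM in naive mice (log2 fold 0.28 ± 0.07 SE, edgeR adjusted p = 0.019). For both genes every cancer library lay above every naive library. Myl12b had 975, 949, 1221 and 856 CPM in cancer mice, against 693, 829, 630.1 and 690.3 CPM in naive mice (log2 fold 0.49 ± 0.09 SE, edgeR adjusted p = 0.0034), again without overlap. Myl12a had 792, 596, 718 and 567 CPM in cancer mice, against 595, 555, 407 and 438 CPM in naive mice (log2 fold 0.42 ± 0.12 SE, edgeR adjusted p = 0.035). Myl6 had 595, 549.9, 711 and 438 CPM in cancer mice, against 485, 457, 359 and 384 CPM in naive mice (log2 fold 0.45 ± 0.11 SE, edgeR adjusted p = 0.021). The statuses overlapped in these last 2 genes, as they did in Arhgdib, which had 1903, 1595, 1626 and 1464 CPM in cancer mice, against 1474, 1477, 1095 and 1197 CPM in naive mice (log2 fold 0.33 ± 0.10 SE, edgeR adjusted p = 0.047).

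Cotl1, Vasp and Dock8 were lower. Cotl1 had 272, 181, 201 and 225 CPM in cancer mice, against 388, 567, 744 and 582 CPM in naive mice (log2 fold -1.38 ± 0.32 SE, edgeR adjusted p = 0.014, 2.60-fold lower). Vasp, the relative of Evl that extends filaments, had 129, 123, 82.4 and 141 CPM in cancer mice, against 152, 207, 239 and 239 CPM in naive mice (log2 fold -0.82 ± 0.19 SE, edgeR adjusted p = 0.015). Neither gene overlapped between the statuses. Dock8 had 133, 177, 154 and 314 CPM in cancer mice, against 350.0, 294, 299 and 284 CPM in naive mice (log2 fold -0.65 ± 0.18 SE, edgeR adjusted p = 0.035), with cancer mouse 8 among the naive values. Without mouse 8 the log2 fold of Dock8 was -0.99, adjusted p = 0.00015, and leaving out any other mouse ended its call. The calls of Cotl1, Myl12b and Tmsb4x held without each mouse in turn. Those of Arhgdib, Myl12a, Myl6, Pfn1 and Vasp were lost without mouse 3, 4 or 7, and all of these but Vasp also without mouse 5, while Arhgdib was lost without mouse 6 as well. No Arp2/3 subunit or membrane linker passed in this gate, nor did Rhoa, Rhoh, Cdc42 or Rac2.

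**Figure D4:**
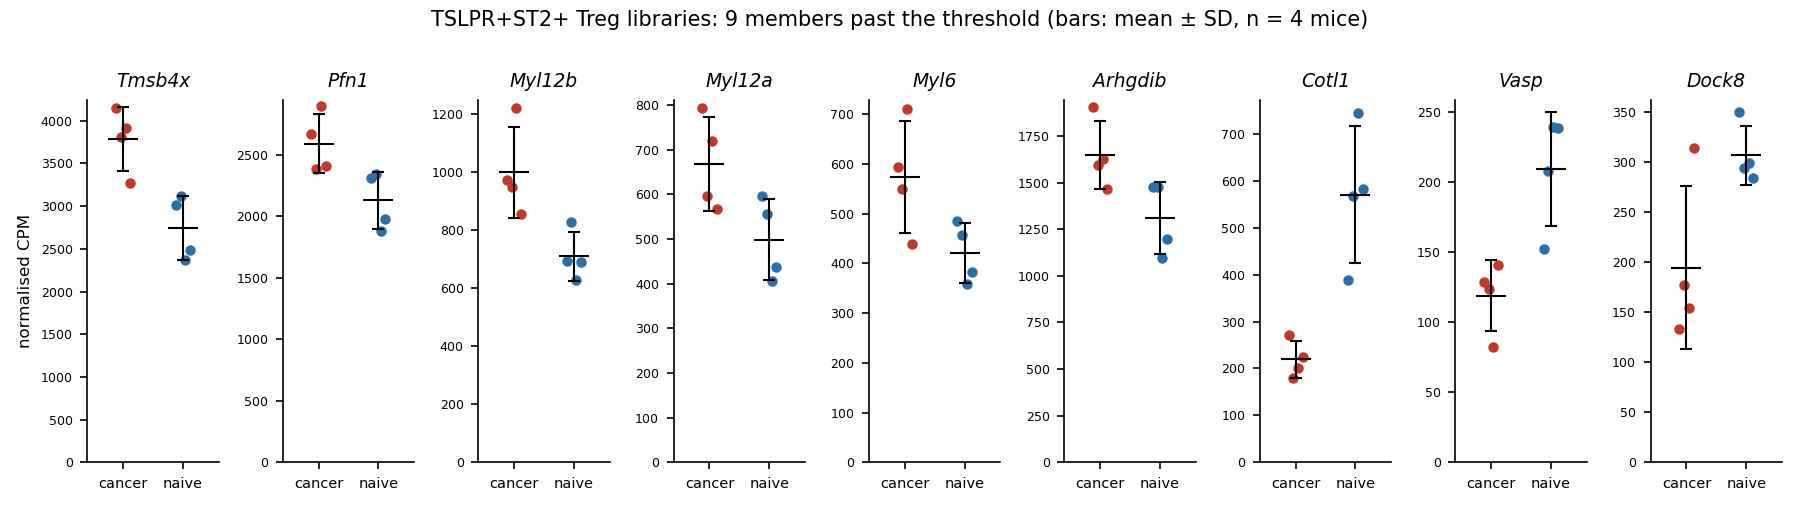
Normalised CPM of the 9 members that passed between cancer and naive mice in TSLPR+ST2+ Treg, with cancer libraries left of naive ones, points for libraries and bars for mean ± SD (n = 4 mice). The first 6 panels are genes that were higher and the last 3 genes that were lower, and one cancer value of Dock8 (314 CPM) sits among the naive values.

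Several technical measures moved with status in this gate, and some in other gates as well, and cannot be told apart from it. Cancer TSLPR+ST2+ libraries had totals of 4038718 to 5816224 counts, against 6607867 to 8839946 counts in naive ones, and mitochondrial shares of 1.43 to 3.23% against 0.618 to 1.24%. Per 10 points of transcript GC, the counts of cancer libraries moved by -0.194 to -0.00387 on the log2 scale relative to the mean library, against 0.0959 to 0.412 in naive libraries. The epithelial marker sum was 13855 CPM in mouse 7 and 200.1 to 592 CPM in the other cancer libraries, against 158 to 341 CPM in naive ones, and the macrophage and dendritic cell sum 639 to 1252 CPM against 1514 to 2604 CPM. The immediate early and heat shock sum was 1323 to 1586 CPM in cancer against 1905 to 2232 CPM in naive TSLPR-ST2- libraries. It was 1223 to 1650 CPM against 1919 to 2133 CPM in TSLPR-ST2+ libraries, and it overlapped between statuses in TSLPR+ST2- libraries. In TSLPR+ST2+ cells the 6 members that were higher have transcripts of 665 to 2143 bases (median 1027), and the 3 that were lower 1596 to 7805 bases. With GC and length offsets for each library 7 members passed, 5 higher and 2 lower, and only 2 of them were among the 9. Cotl1 (log2 -1.28, adjusted p = 0.023) and Myl12b (log2 0.53, adjusted p = 0.0026) still passed, while Tmsb4x stood at log2 -0.21, adjusted p = 0.21. The other 5 were Cfl1, Diaph1, Rac2 and Wasf2, which were higher, and Cytip, which was lower. With the mitochondrial share as a covariate none of the 9 passed, and Cotl1 stood at log2 0.22, adjusted p = 0.94. After thinning all libraries to equal totals 11 members passed, these 9 among them. In a fit of this gate's 8 libraries alone, Cotl1 passed and the other 8 did not. Over all 32 libraries the highest Cotl1 values were 901 CPM in the TSLPR-ST2+ and 744 CPM in the TSLPR+ST2+ library of naive mouse 3, the 2 libraries that lean most to GC-rich transcripts. Of the other cytoskeleton genes 1 was higher in cancer mice, Ppp1cb, a catalytic subunit of myosin phosphatase (log2 fold 0.73 ± 0.18, edgeR adjusted p = 0.02), and 11 were lower (all genes 1.66% higher and 2.5% lower), among them Nckap1l (-1.23 ± 0.22, adjusted p = 0.0018) and the adducin Add1 (-1.04 ± 0.19, adjusted p = 0.0028).

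**Figure D5:**
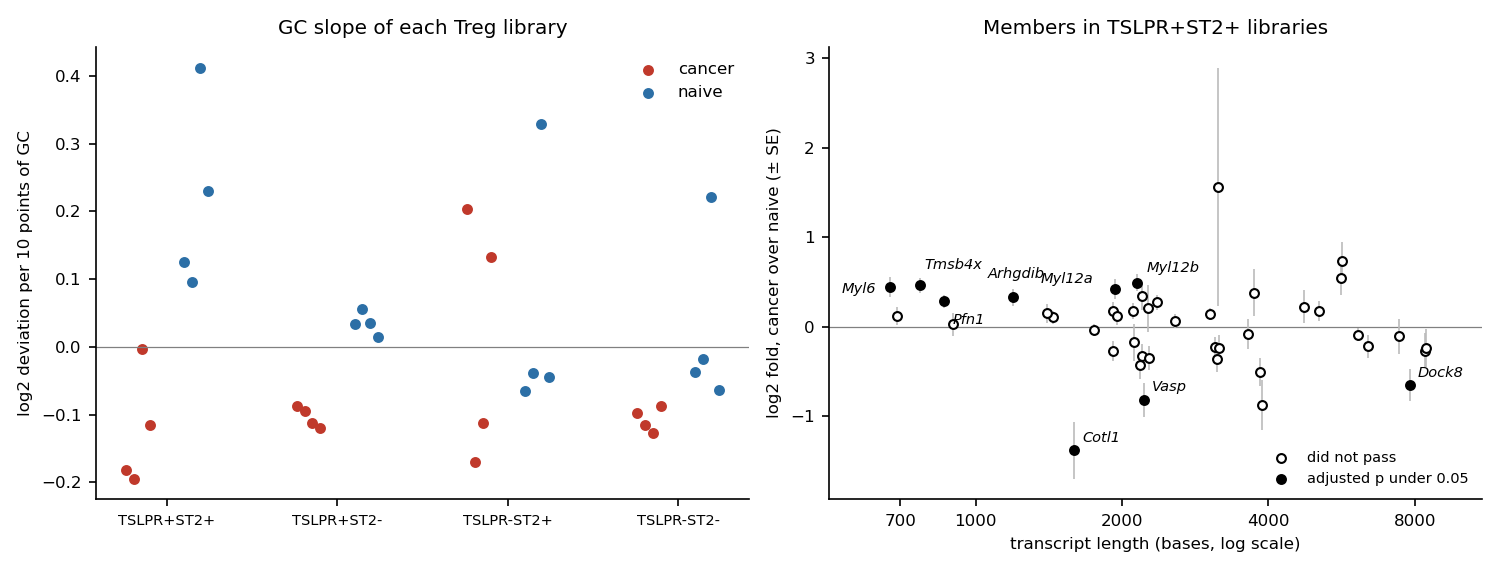
Left, slope of each Treg library's log2 deviation from the mean library per 10 points of transcript GC, by gate, with cancer libraries left of naive ones; right, log2 fold of the members between cancer and naive mice in TSLPR+ST2+ cells against transcript length (log axis), bars for standard errors and filled points for adjusted p under 0.05. All cancer TSLPR+ST2+ slopes are below 0 and all naive ones above 0, and the 6 filled points above 0 lie at 2143 bases or less.

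Whether the difference between cancer and naive mice itself depended on ST2 or on TSLPR was tested with interactions. Each interaction was averaged over the other receptor. By edgeR none of the 44 members passed in either test, and 0% of all genes tested did. At an unadjusted p under 0.05 there were 5 members for ST2 and 3 for TSLPR, where 6.23% and 7.93% of all genes were, and DESeq2 and limma each called 0 members in both. The members with the smallest p were Myl6 for ST2 (log2 difference 0.30 ± 0.11, edgeR adjusted p = 0.64) and Tmsb4x for TSLPR (0.27 ± 0.08, adjusted p = 0.46). The log2 difference of Capg was -0.06 ± 0.10 for TSLPR, and that of Evl 0.03 ± 0.15. Neither interaction sets TSLPR+ST2+ cells alone against the other gates. Whether the members that passed in that gate and in no other respond differently there was therefore not tested.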

How the data were processed

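The deposited table gives raw counts of reads per gene, one column per library, from 58-base single reads of SMART-Seq v4 and Nextera XT libraries, per the labels' protocols. The submitters' processing notes name HTSeq 0.4.1, Picard 1.134, FastQC 0.11.3, SAMtools 1.2 and the build GRCm38; the aligner, annotation release and strand setting are not stated there or in the labels. Gene symbols, positions, length and GC (APPRIS principal transcript, else the longest) came from GENCODE M21.

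Counts were tested with edgeR 4.0.16 (R 4.3.3, TMM scaling, filterByExpr with minimum count 10 and total 15, robust quasi-likelihood F-test, Benjamini-Hochberg limit 0.05 over all genes tested). One model of 8 group means held the 32 Treg libraries (14861 genes); status over gates used 8 per-mouse sums (15338 genes). Replicates are separate mice. For members CPM rests on TMM-scaled totals; for library and marker measures, and for all values set beside the Foxp3- CD44low library, it rests on plain ones.

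The gates of a mouse come from the same animal, so mouse numbers pair the gate comparisons. Over 48 same-mouse pairs the deviations from group means correlated by 0.00993 on average (-0.0421 to 0.192, 3 above 0.1), against -0.00331 over 144 pairs of other mice. Deviations from a group's own mean sum to 0, so the second average follows from the first and is no independent comparison.

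Members, gene lists, tests and alternatives were chosen with earlier results of these data known. Members were given with values where they passed, at most 4 per role and comparison by p, with the 3 highest per kilobase and 3 related pairs, and other genes, at most 3 per list, where they passed. Alternatives were RLE size factors, DESeq2 1.42.0, limma 3.58.1, no filter, each mouse left out, single gates, the mouse as a block, thinning and a mitochondrial covariate; GC and length offsets, fits within one status and sums without TSLPR+ST2+ libraries were added after seeing the data. Fits were tested on simulated counts. Counts over 1 group of members are not reported here.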

Additional observations from a re-analysis of the deposited data

Results flagged for a closer look

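Of 62 groups of 4 values printed above, 2 held a library or mouse far from the other 3 by Dixon's 95% critical value; chance alone marks about 1 group in 20. Evl in naive TSLPR-ST2- Treg stood at 235 CPM in mouse 1, against 277, 278 and 283 CPM in the other 3 mice. It was still above all TSLPR+ libraries. Dock2 summed per mouse stood at 623 CPM in cancer mouse 8, against 649.6, 650.0 and 652 CPM in the other cancer mice. Without mouse 8 the log2 fold of Dock2 was -0.24, adjusted p = 0.083.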

How the results depend on the processing

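Counts of members that passed stayed within 1.5 times the main count in 161 of 195 refits. These refits include comparisons with a main count of 0, where staying at 0 was counted as within. Those comparisons are status in double-negative, TSLPR-ST2+ and TSLPR+ST2- cells and both interactions. With each mouse left out in turn the counts ran 0 to 2 per mouse, 0 to 0 for status in double-negative cells, 0 to 1 in TSLPR-ST2+ cells, 0 to 2 in TSLPR+ST2- cells and 3 to 12 in double-positive cells, 11 to 16 for TSLPR, 5 to 8 for ST2, 4 to 9 for the single-positive gates, 13 to 21 for TSLPR+ST2+ against TSLPR-ST2-, and 0 to 0 for both interactions. DESeq2 called 10 members per mouse, 1 in TSLPR-ST2+, 2 in TSLPR+ST2- and 14 in TSLPR+ST2+ cells; limma called 1 in TSLPR-ST2+ cells. Without the low-count filter 1 passed per mouse and 5 in TSLPR+ST2+ cells, with the mitochondrial covariate 0 in both, and with the gate's libraries alone 1. Within naive mice 6 passed for TSLPR, 2 for ST2, 2 for the single-positive gates and 9 for TSLPR+ST2+ against TSLPR-ST2-; within cancer mice 7, 3, 1 and 13, with fewer libraries in each fit. Signs turned in TSLPR+ST2+ cells with the mitochondrial covariate for Arhgdib (-0.11), Cotl1 (0.22), Myl12a (-0.16), Myl6 (-0.12), Pfn1 (-0.028) and Vasp (0.019), with GC and length offsets for Arhgdib (-0.058), Myl6 (-0.0091) and Tmsb4x (-0.21), and for Myl6 in TSLPR+ST2+ against TSLPR-ST2- cells of naive mice (-0.018); the cause was not tested. With GC and length offsets and the block, 3 members passed as higher and 13 as lower for TSLPR, Pfn1 among the lower (-0.09). The counts were 8 and 13 for TSLPR+ST2+ against TSLPR-ST2-, 5 and 4 for ST2, and 2 and 8 for the single-positive gates. Each comparison had more lower calls than in the main fit, so this setting added calls as well as ending them. Beside the calls named above, the mouse as a block added Arpc2 and Tmsb10 for TSLPR (log2 0.10, adjusted p = 0.049, and log2 -0.14, adjusted p = 0.049) and changed no other call. No paired analysis was possible for status because cancer and naive mice are different animals. Lmna and Actn1 had the lowest levels per kilobase, which limits the precision of their values.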

Other observations

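One library of naive CD4+ T cells that were Foxp3- and CD44low, with no replicate and no mouse given, lies outside the comparisons. On the scale of plain library totals, and against the 16 naive Treg libraries, 34 of the 44 members were within the Treg range, 7 above and 3 below it. Capg showed the lowest ratio, at 98.1 CPM, against 494 to 1232 CPM (median 798) in naive Treg. Also below the Treg range were Rhoh and Vim, with Vim at 277 CPM, against 295 to 491 CPM (median 381) in naive Treg. Actn1 stood furthest above, at 59.5 CPM against a median of 22.6 CPM, and Evl was above as well, at 299 CPM, against 104 to 276 CPM (median 185). The others above the range were Myl12b, Tmsb10, Wasf2, Dock8 and Ezr. Ripor2 was within it, at 629 CPM, against 252 to 735 CPM (median 394). These are values of 1 library, and no test was made.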
